A study of Mus musculus with 50 samples.

Results

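The data described here were the response of mouse embryonic stem cells without Suv39h1 and Suv39h2 to doxycycline, in a line that carried a doxycycline-inducible Dux transgene. The line, Suv39h1/2-DKO, belonged to strain TT2 and also lacked endogenous Dux, as did every line of the same table, and it was measured without doxycycline (2 libraries) and with doxycycline at dose label 1 (2 libraries, unit not given in the labels). The titles of these 4 libraries also carry NT, and those of the lines without Setdb1 carry OHT, neither of which the labels explain. The comparison addressed which genes Dux induction switches on when the enzymes that trimethylate lysine 9 of histone H3 in constitutive heterochromatin are missing. A gene was a member when 2 or more of these 4 libraries held it at 1 TPM or above. That rule was met by 11951 of the 24413 rows of the table, among them the Dux transgene (TetOnDux) and a reporter (MERVL-sfGFP). TPM is transcript abundance per length, scaled to the same total in every library, and it keeps no record of depth. Between 11742 and 11911 genes reached 1 TPM in each of the 4 libraries. Next to the rule, Platr22 (second highest value 1.002 TPM) just passed and Tc2n (second highest value 0.999756 TPM) just failed. The labels did not say that replicates were separate cultures or clones, so p-values measured only the spread between libraries. That spread was estimated over all 32 libraries of the table, not from these 4 alone. No library held doxycycline without the transgene, so the effects of drug and Dux cannot be told apart.

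Dux is a homeobox transcription factor that is expressed briefly in the mouse embryo when its own genome first becomes active, around the 2-cell stage. It binds and activates MERVL endogenous retroviruses and a set of genes that are largely multicopy, among them Zscan4, Usp17-like and Tdpoz genes, and forced Dux expression moves embryonic stem cells towards a state resembling that stage. Suv39h1 and Suv39h2 are related histone methyltransferases of heterochromatin. Setdb1 and G9a (encoded by Ehmt2) methylate the same residue elsewhere in the genome. In bulk RNA, a change in the number of responding cells and a change in the RNA of each cell cannot be told apart.

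Across all 32 libraries of the table, 6 stood apart by a high level of small nucleolar RNA host transcripts (mean log2 level of 15 Snhg genes 4.16 to 4.61), and 0 of the 6 belonged to the Suv39h1/2-DKO line, whose 4 libraries lay at 2.87 to 3.19. They fell in 4 of the other lines and entered the shared estimate of the spread. Leaving them out leaves 1 library in some groups of those lines, which is then assumed to vary like the rest. Within each of the 8 lines, the differences between replicate 2 and replicate 1 correlated between the libraries without and with doxycycline (r = 0.633 over members in Suv39h1/2-DKO, lowest 0.188 in G9a-KO). The highest, 0.785 in Setdb1-KO and 0.741 in G9a;Setdb1-DKO, were in lines whose replicate 2 was of high Snhg level without and with doxycycline. The labels do not say what a replicate number marks, and whether it paired libraries was not tested. A fit with a replicate block within each line is given beside the results it moved.

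The transgene responded as labelled. TetOnDux was at 0.577 and 1.86 TPM without doxycycline and at 59.2 and 71.5 TPM with it (log2 fold change 4.96, SE 0.364, limma adjusted p = 3.91e-08). MERVL-sfGFP, whose name points to a fluorescent reporter of the MERVL element, was at 8.56 and 9.44 TPM without and at 21.6 and 28.7 TPM with doxycycline. Its libraries did not overlap, but the difference did not pass the test (log2 fold change 1.38, SE 0.387, limma adjusted p = 0.17). It passed with the replicate block within each line (adjusted p = 0.0347), with median-ratio scaling (0.0358) and without the 6 libraries (0.00293). The table has no separate row for endogenous Dux.

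Transcripts of the targeted genes were still listed and did not change with doxycycline by the test. Suv39h1 was at 12.4 and 10.9 TPM without and at 10.01 and 9.04 TPM with doxycycline, and Suv39h2 at 11.8 and 10.6 against 9.41 and 9.53 TPM, both with groups that did not overlap (log2 fold changes -0.26 and -0.22). Setdb1 and Ehmt2, intact in this line, had overlapping libraries (30.4 and 42.1 against 29.2 and 36.8 TPM for Setdb1). A gene-level TPM does not show whether a transcript still encodes protein, so these rows check no deletion.

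Doxycycline raised 60 members, 59 genes and the transgene, and lowered 3, at a Benjamini-Hochberg adjusted p below 0.05 and a log2 fold change of at least 1 in size. Of all 13819 rows tested, 0.434% were called higher and 0.0217% lower, and all 63 called rows were members. In all 63 the libraries with doxycycline lay wholly on one side of those without, as they did in 35.6% of all members (1182 higher and 3069 lower), so a lack of overlap alone says little here. The 60 raised rows summed to 146 and 148 TPM without doxycycline and to 1857 and 2232 TPM with it, while the median log2 fold change of all members was -0.07. Of these 60, 35 passed the 1 TPM rule only through the libraries with doxycycline, and a further 205 members that passed the same way were not called. Fitted on these 4 libraries alone, limma called 27 rows higher and 0 lower, and 22 of the 60 were among them. The calls depended on how the spread was estimated: the block within each line gave 99 members higher (0.724% of rows tested called higher) and 10 lower (0.0724%), and the fit without the 6 libraries gave 99 (0.738%) and 6 (0.0434%). All 60 were also called higher with the block, 59 of them without the 6 libraries, and 28 further members were called higher in both.

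**Figure D1:**
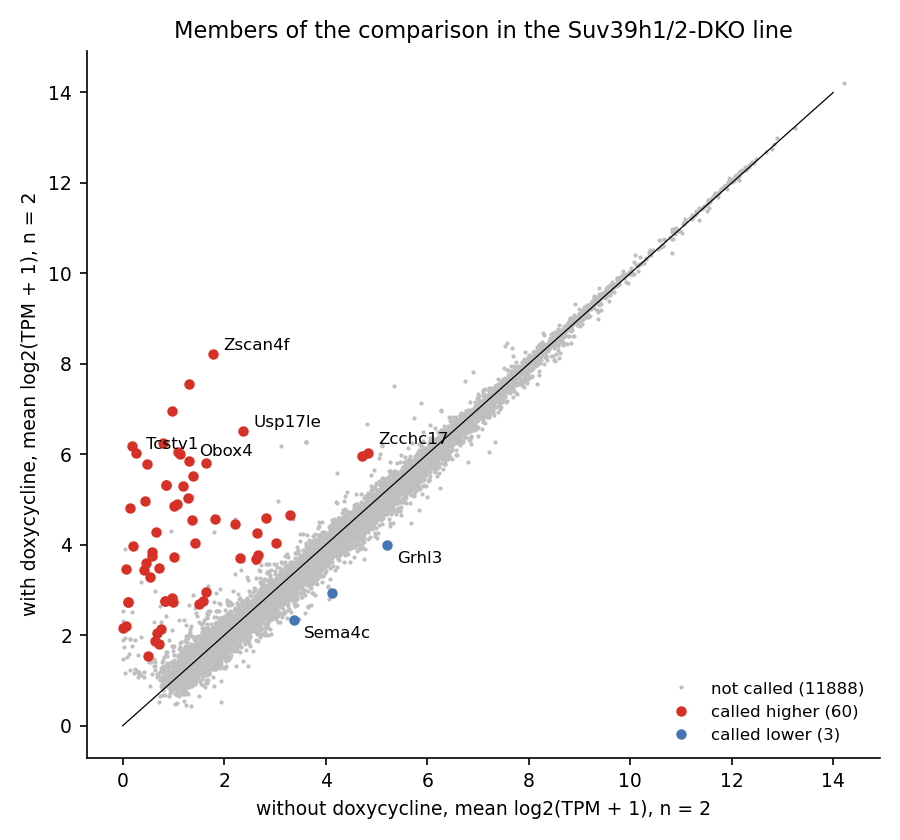
Each point is 1 of the 11951 members, with its mean log2(TPM + 1) over the 2 Suv39h1/2-DKO libraries without doxycycline on the x axis and over the 2 with doxycycline on the y axis. The 60 members called higher (red) leave the diagonal mostly from low starting levels, the 3 called lower (blue) lie close under it, and the line marks equality.

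The Zscan4 genes, which encode zinc finger and SCAN domain proteins that mark the 2-cell stage and protect telomeres in embryonic stem cells, held the 3 highest mean TPM with doxycycline among the raised genes. All 5 members of the family were called higher, with a median log2 fold change of 5.99 against -0.05 over all rows tested. Of these 5, 2 passed the 1 TPM rule only with doxycycline. Zscan4f was at 1.89 and 3.06 TPM without doxycycline and at 296 and 294 TPM with it (log2 fold change 6.43, SE 0.47, limma adjusted p = 3.91e-08). Zscan4c was at 1.05 and 1.95 against 178 and 194 TPM (log2 fold change 6.25). The family as a whole summed to 5.07 and 7.47 TPM without and to 730 and 748 TPM with doxycycline, so its replicates with doxycycline lay close together. Zscan4b (0.790 and 1.16 against 125 and 122 TPM), Zscan4a (0.0675 and 0.224 against 66.4 and 77.3 TPM) and Zscan4d (1.28 and 1.07 against 64.6 and 61.7 TPM) followed. Zscan4a is annotated as a transcribed pseudogene in RefSeq.

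How reads were divided among copies of a family is not stated, so the values of single copies are uncertain. The stretches show how alike 4 of the copies are upstream of their starts, and do not bear on how reads were divided. They are from RefSeq (GRCm38.p6), 5′ to 3′ along the gene, and are aligned on the tataaa box that all of them hold. Their positions are Zscan4f chr7:11397834-11397913 (plus strand), Zscan4c chr7:11005641-11005720 (plus strand), Zscan4d chr7:11166184-11166263 (minus strand) and Zscan4b chr7:10905052-10905131 (minus strand). Capitals mark the bases that differ from Zscan4f.
Zscan4f: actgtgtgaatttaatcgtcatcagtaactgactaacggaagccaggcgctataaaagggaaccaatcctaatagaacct
Zscan4c: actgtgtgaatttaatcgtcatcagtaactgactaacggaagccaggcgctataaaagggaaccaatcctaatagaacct
Zscan4d: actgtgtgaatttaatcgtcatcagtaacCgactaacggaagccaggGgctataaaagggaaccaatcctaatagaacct
Zscan4b: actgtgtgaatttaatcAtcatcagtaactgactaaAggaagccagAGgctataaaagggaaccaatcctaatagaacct
Over these 80 bases Zscan4c was identical to Zscan4f, Zscan4d shared 97.5% and Zscan4b 95% of the bases. The 4 genes with these stretches rose by log2 fold changes of 4.88 (Zscan4d) to 6.43 (Zscan4f), and Zscan4a, whose stretch is not shown, by 5.99. A link between these sequences and the rise was not tested.

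All 5 Usp17-like genes, a family of multicopy deubiquitinases, were also called higher (median log2 fold change 3.17). Of them, 3 passed the 1 TPM rule only with doxycycline. Usp17le was the most abundant, at 3.63 and 4.83 TPM without and 77.5 and 105 TPM with doxycycline (log2 fold change 4.13, SE 0.315, limma adjusted p = 6.76e-08). The remaining members reached 8.49 to 27.4 TPM with doxycycline from 0.343 to 2.73 TPM without. In each of the 5, replicate 2 was the higher of the libraries with doxycycline, as it was for the transgene. It was the lower for some other raised genes, such as Zscan4f (296 and 294 TPM) and Tcstv1 (65.5 and 62.2 TPM). A link to the level of the transgene was not tested. Usp17lb and Usp17lc lost their call without replicate 2 with doxycycline (adjusted p = 0.064 and 0.222), and also without replicate 1 without it (0.054 and 0.089). Usp17lc lost it without replicate 2 without doxycycline too (0.112).

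The Tcstv genes, 2-cell transcripts of unclear function, gave Tcstv1 at 0.199 TPM in both libraries without doxycycline and at 65.5 and 62.2 TPM with it (log2 fold change 5.76, SE 0.551, limma adjusted p = 2.00e-06). Tcstv3 rose from 1.09 and 2.18 to 20.9 and 23.9 TPM (log2 fold change 3.18, adjusted p = 0.0416), a call that was lost when any 1 of the 4 libraries was left out (adjusted p from 0.133 to 0.388). Both Tcstv genes thus had groups that did not overlap, and the test on Tcstv3 rested on every library.

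Of the Obox homeobox genes, maternal and early embryonic transcription factors, 2 were members. Obox4 was at 1.27 and 1.67 TPM without and at 48.5 and 67.0 TPM with doxycycline (log2 fold change 4.56, SE 0.265, limma adjusted p = 1.60e-09). Obox6 was at 2.03 and 2.33 against 3.75 and 4.86 TPM and did not pass (log2 fold change 0.73, adjusted p = 0.283). Among Tdpoz genes, which encode TRAF and BTB/POZ domain proteins, 1 of 5 tested was a member: Tdpoz3, at 0.518 and 0.371 TPM without and at 7.42 and 10.3 TPM with doxycycline (log2 fold change 2.76), a call lost without replicate 2 with doxycycline (adjusted p = 0.0644). The other 4 stayed at or below 1.03 TPM in every library of the line. Gm4858, which RefSeq names Tdpoz8 and which was singled out after its value was seen, rose from 0.121 and 0.184 to 9.11 and 23.7 TPM.

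PRAME-like genes encode leucine-rich repeat proteins of germ cells and early embryos in large tandem arrays. Of the 6 listed members, Pramef25 was called higher, from 1.45 and 1.41 to 29.5 and 34.6 TPM (log2 fold change 3.76, SE 0.603, limma adjusted p = 0.00166), and the list's median was 0.23. Pramef8 (11.95 and 12.7 against 10.97 and 14.3 TPM) and Pramef12 (7.51 and 7.63 against 6.65 and 7.88 TPM) had overlapping libraries. Pramef17 was at 1.37 and 1.26 against 4.19 and 3.95 TPM and was called only without the 6 libraries (adjusted p = 0.00728). RefSeq gives PRAME-like names to 4 further raised rows outside the list, noticed after the calls: Gm13119 (Pramel31), A430089I19Rik (Pramel39), Gm12794 (Pramel19) and Gm7978 (Pramel50). Gm13119 had the smallest adjusted p of the response, at 0.174 and 0.0351 TPM without and 23.2 and 31.3 TPM with doxycycline (log2 fold change 4.66, SE 0.248, limma adjusted p = 6.36e-10).

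**Figure D2:**
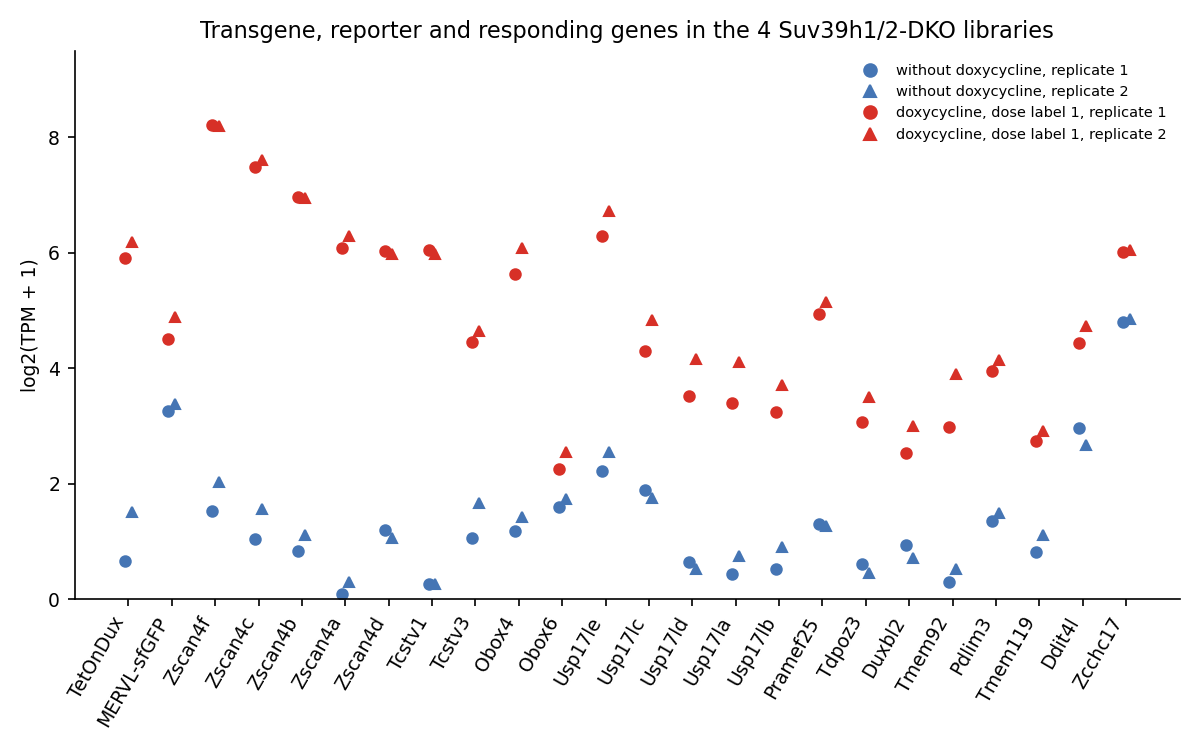
The y axis gives log2(TPM + 1) in each of the 4 Suv39h1/2-DKO libraries for the transgene, the reporter and 22 genes on the x axis, without doxycycline in blue and with it in red, circles for replicate 1 and triangles for replicate 2. For every gene drawn both red points lie above both blue points, from Obox6 (log2 fold change 0.73, not called) to Zscan4f (6.43).

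Some raised genes lay near each other on the chromosomes. Of the 56 with a position in RefSeq, 31 fell into 9 groups whose neighbours were within 1 Mb, a description with no background share. The largest group held 8 genes with predicted or clone names on chr12:87514316-88321762 (GRCm38.p6): Gm8300, Gm4027, Gm21319, BB287469, Gm2016, Gm2022, Gm5662 and Gm5039. RefSeq gives 7 of them as protein coding and Gm5039 as a transcribed pseudogene. Gm5662 was at 0.710 and 0.768 TPM without and at 60.5 and 93.3 TPM with doxycycline (log2 fold change 5.45, SE 0.56, limma adjusted p = 4.84e-06). Gm2016 rose from 0.418 and 0.372 to 45.04 and 65.8 TPM, and the smallest of the 8 folds was that of Gm21319 (log2 fold change 3.42, 0 and 0.0792 against 6.84 and 14.8 TPM). In all 8, replicate 2 was the higher library with doxycycline. The calls of Gm4027 and Gm8300 were lost without it (adjusted p = 0.069 and 0.0897) and without replicate 2 without doxycycline (0.0515 and 0.0584).

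The 5 Zscan4 genes formed the group on chr7:10794241-11402318, and 3 Usp17-like genes that on chr7:104767961-104862667. A group of 4 on chr4:143535954-144364419 held Pramef25, Gm13119 and the pair Gm13040 and Gm13057. That pair had identical values in all 32 libraries (0.670 and 0.944 TPM without, 33.4 and 46.0 TPM with doxycycline, log2 fold change 4.48), as did Duxbl2 with Duxbl3 and BC061212 with Gm7978. The 60 raised rows were therefore 57 distinct profiles, since 6 rows were copies of each other.

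The broader list of 2-cell and Dux-linked genes, like the family lists, was chosen with earlier results of these data known. It had 33 members, of which 11 were called higher and 0 lower, with a median log2 fold change of 1.77. Over all rows tested, 0.434% were called higher and the median was -0.05. Of these 33, 14 passed the 1 TPM rule only with doxycycline. The block within each line called 18 of them higher and the fit without the 6 libraries 19. Duxbl2, a Dux-like homeobox gene, rose from 0.911 and 0.646 to 4.76 and 6.98 TPM (log2 fold change 1.93, SE 0.383, limma adjusted p = 0.0133), but lost its call without either library without doxycycline or replicate 2 with it (adjusted p from 0.0888 to 0.264). Tmem92, a membrane protein, rose from 0.229 and 0.438 to 6.94 and 14.01 TPM. Ddit4l, related to the stress gene Ddit4, rose from 6.77 and 5.38 to 20.7 and 25.7 TPM (log2 fold change 1.77).

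Several 2-cell genes of that list had groups that did not overlap and still missed the test. Zfp352, a zinc finger gene of the 2-cell stage, was at 0.0944 and 0.287 TPM without and at 2.04 and 3.48 TPM with doxycycline (log2 fold change 1.64, adjusted p = 0.278). Gm6763, 1 of 4 rows with identical values, was at 14.1 and 8.92 against 79.2 and 73.8 TPM (adjusted p = 0.207). Both were called with the block (adjusted p = 0.0243 and 6.64e-05) and without the 6 libraries. Abundant genes of the list did not pass: the glucose transporter Slc2a3 was at 1830.1 and 1807 against 1311 and 1481 TPM, and Gabarapl2 at 399 and 502 against 496 and 522 TPM. Nelfa, which encodes an elongation factor subunit linked to the 2-cell state, had overlapping libraries (58.0 and 68.0 against 64.4 and 75.1 TPM).

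Other raised genes lay outside those families. Pdlim3, a PDZ and LIM domain protein of the muscle cytoskeleton, was at 1.57 and 1.82 TPM without and at 14.5 and 16.6 TPM with doxycycline (log2 fold change 2.62, SE 0.303, limma adjusted p = 2.68e-05). Tmem119, a membrane protein known from bone and microglia, rose from 0.761 and 1.16 to 5.70 and 6.56 TPM (log2 fold change 1.87). Tspan1 (0.881 and 1.08 against 4.49 and 7.07 TPM), a tetraspanin, and Snai3 (4.62 and 6.04 against 16.7 and 19.4 TPM), a Snail-family repressor, also rose. Thsd1, a thrombospondin-repeat membrane protein, rose from 3.25 and 4.84 to 10.8 and 13.4 TPM (log2 fold change 1.39). Thsd1 and Zcchc17 lost their calls without replicate 1 without doxycycline (adjusted p = 0.147 and 0.0587) or replicate 2 with it (0.143 and 0.064), and Tspan1 without the latter (0.0644). The highest starting levels were those of Zcchc17 and Arl4d. Zcchc17, a zinc knuckle RNA-binding protein, was at 27.0 and 28.0 TPM without and at 63.4 and 65.3 TPM with doxycycline (log2 fold change 1.20, SE 0.206, limma adjusted p = 0.00312), and Arl4d, a small GTPase outside the naming rule, at 29.0 and 22.3 against 58.5 and 65.2 TPM.

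The 3 genes called lower were Grhl3, Maff and Sema4c. Grhl3, an epithelial transcription factor of the grainyhead family, was at 33.8 and 38.0 TPM without and at 13.7 and 16.3 TPM with doxycycline (log2 fold change -1.21, SE 0.192, limma adjusted p = 0.00146). Maff, a small Maf transcription factor, was at 16.1 and 16.8 against 6.11 and 7.19 TPM (log2 fold change -1.19, adjusted p = 0.00986). Sema4c, a semaphorin, was at 9.10 and 9.59 against 3.94 and 4.18 TPM (log2 fold change -1.03, adjusted p = 0.000938). Grhl3 kept its call when any 1 library was left out, whereas Maff lost it each time (adjusted p from 0.064 to 0.162) and Sema4c missed the fold limit narrowly with median-ratio scaling (log2 fold change -0.97) and without replicate 2 without doxycycline or replicate 1 with it.

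With the block within each line, 7 more members passed as lower, and these are named because the count moved, after their values were seen. Otx2, a homeobox gene active in primed epiblast cells, was at 34.4 and 72.7 TPM without and at 15.8 and 28.8 TPM with doxycycline, a fall by 1.19 on the log2 scale (adjusted p = 0.348 without the block, 9.02e-06 with it). The replicates started at different levels, and each was lower with doxycycline. Egln3, a prolyl hydroxylase induced by low oxygen, was at 116 and 190 against 55.9 and 75.8 TPM (adjusted p = 0.567 without, 3.14e-05 with the block). Ndrg1, which is also induced by low oxygen, was at 66.8 and 46.7 against 26.6 and 25.6 TPM (adjusted p = 0.0699 and 0.000413). Bhlhe40, Gadd45b, Cdc42ep2 and B3gnt3 were the other 4. Without the 6 libraries, 6 members were lower, the 3 above with Egln3, Gadd45b and B3gnt3, and all 6 were also lower with the block. Elf3, an epithelial transcription factor (127 and 95.6 against 53.03 and 58.4 TPM), passed the p limit but not the fold limit (log2 fold change -0.97).

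**Figure D3:**
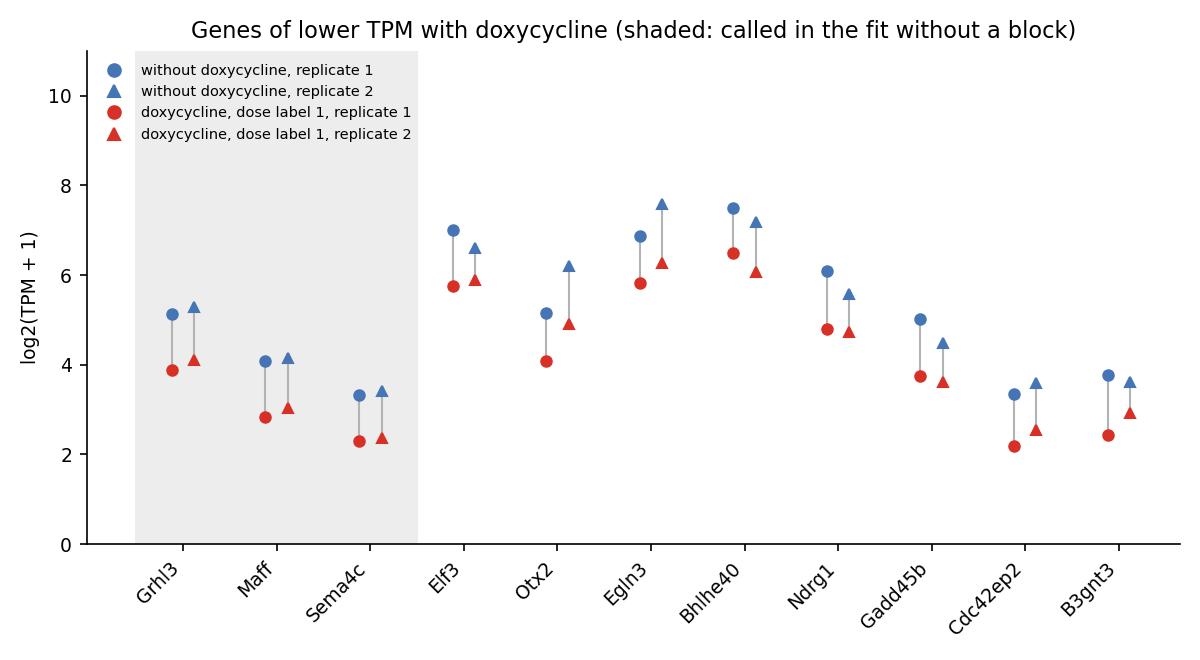
The y axis gives log2(TPM + 1) of 11 genes in the 4 libraries, without doxycycline in blue and with it in red, and grey lines join libraries of the same replicate number. The shaded Grhl3, Maff and Sema4c were called, and in Otx2 and Egln3 the replicates start at different levels and both lie lower with doxycycline (log2 fold changes -1.19 and -1.18).

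The embryonic stem cell program had 0 of its 25 listed naive pluripotency members called by limma, also with the block and without the 6 libraries, and 5 at an unadjusted p below 0.05 (2 higher, 3 lower). With 0.434% and 0.0217% of rows called, a count of 0 among 25 is near the background. Pou5f1, Nanog and Zfp42, core genes of these cells, had overlapping libraries (1517 and 1256 against 1586 and 1322 TPM for Pou5f1). Klf4 was at 168 and 129 against 120 and 105 TPM and Sox2 at 344 and 382 against 255 and 286 TPM, and neither passed (adjusted p = 0.723 and 0.556). Fbxo15 stood out on the upper side, at 198 and 179 against 300 and 418 TPM (log2 fold change 0.91, adjusted p = 0.289). Dppa2, which activates Dux and other 2-cell genes, was listed under H3K9 silencing machinery. It was at 90.2 and 154 against 182 and 277 TPM (log2 fold change 0.92, limma adjusted p = 0.0403, under the fold limit).

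Lists of other fates, stress and housekeeping, with H3K9 silencing machinery among them, also held 0 called members by limma. Of their 253 members, 22 (8.7%) had an unadjusted p below 0.05, 1 higher (Dppa2) and 21 lower. Of all members, 827 (6.92%) did, 234 higher and 593 lower. For primed epiblast and germ layers the median log2 fold change was -0.40 over 11 members, for trophoblast -0.35 over 13, for primitive endoderm -0.23 over 21 and for p53 targets -0.25 over 21, beside -0.07 over all members. The primitive endoderm markers Gata4 (18.6 and 24.97 against 11.5 and 17.5 TPM) and Pdgfra (13.1 and 13.2 against 7.20 and 9.81 TPM) had groups that did not overlap and did not pass (adjusted p = 0.556 and 1). Of the 21 members of that list, 7 were lower without overlap and 0 higher, beside 35.6% of all members without overlap in either direction. Sparc (329 and 250 against 277 and 268 TPM) and Lamc1 (180 and 217 against 164 and 248 TPM) had overlapping libraries. Cdkn1a, a cell cycle inhibitor and p53 target, was at 87.5 and 55.9 against 50.3 and 44.8 TPM (adjusted p = 0.213). Over germline (28 members), ATF4 stress response (18), interferon response (6), imprinted (23), H3K9 silencing machinery (34), nuclear-retained RNAs (17), cell cycle (32), proteasome (31) and fibroblast lists (4) the medians lay between -0.13 and 0.07. With the block, Otx2 was the 1 listed member called, and without the 6 libraries 0 were. Of the 7 fibroblast markers tested, Col1a1 (at most 0.682 TPM), Lum (at most 0.0347 TPM) and Acta2 (at most 0.083 TPM) were near 0 in all 4 libraries, while Vim (48.5 and 95.3 against 61.3 and 87.6 TPM), Thy1 (5.91 and 5.50 against 6.11 and 7.27 TPM), Fbn1 and Pdgfrb were members and were not called. At an unadjusted p below 0.05 in limma, with the same fold limit, 106 members were higher and 10 lower over the whole comparison.

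**Figure D4:**
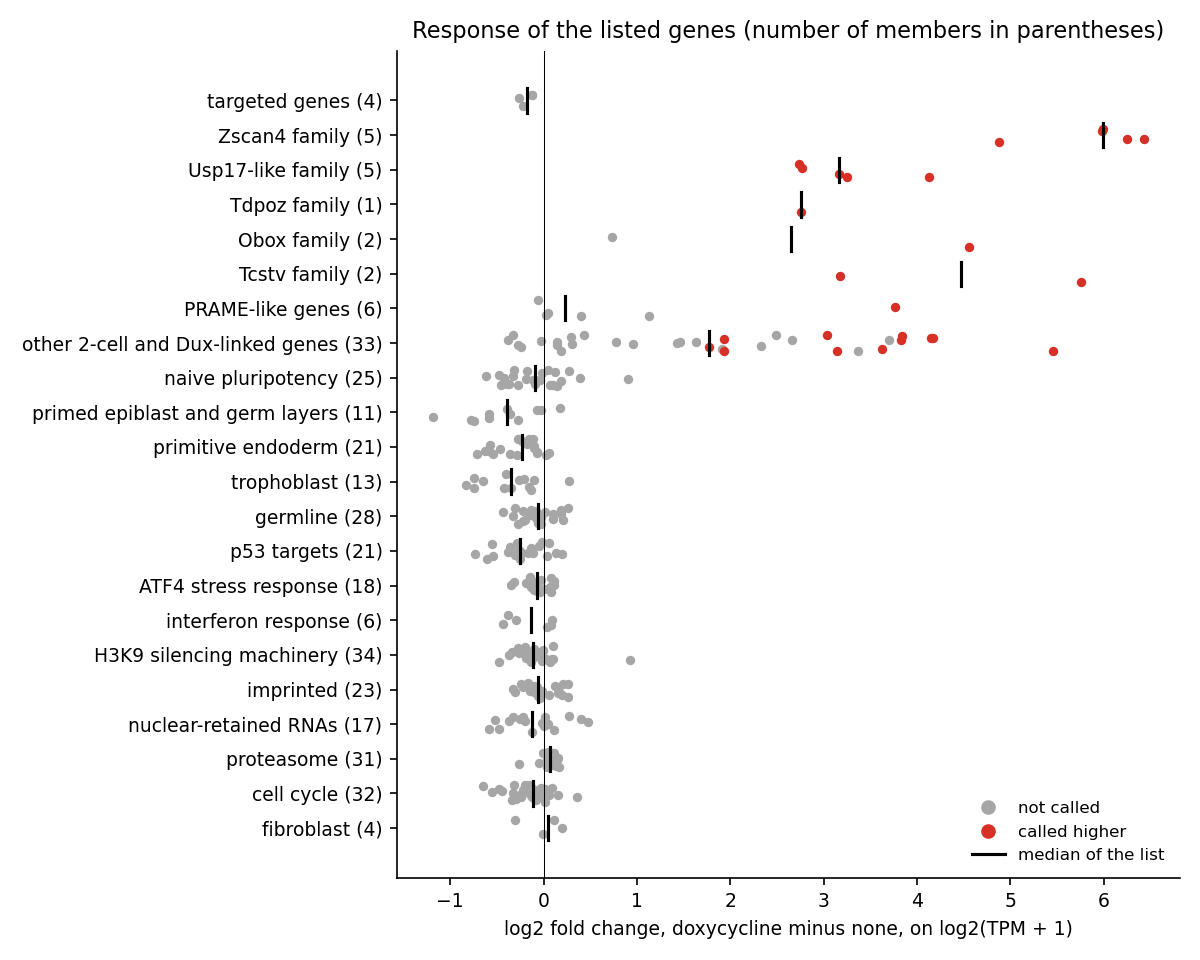
Each point is the log2 fold change, doxycycline minus none, of 1 member on the x axis, by gene list on the y axis, with the median as a black bar and members called higher in red. The Zscan4, Usp17-like, Tcstv, Tdpoz (1 member) and Obox (2 members) families have medians of 2.65 to 5.99 and PRAME-like genes 0.23, while the lists from naive pluripotency downwards have medians from -0.40 to 0.07 and no called member. Of the family members, 2 Zscan4, 3 Usp17-like, 1 Tcstv and the 1 Tdpoz passed the 1 TPM rule only with doxycycline.

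Promoter sequences were in the RefSeq table for 29 of the 60 raised members and for the 3 lowered ones. The windows ran from 250 bases before to 50 bases after the start and were searched on both strands for GATTNAATC, the core of the mouse Dux motif, and for AATCNAATC, the core of the human DUX4 motif, which can overlap each other. The mouse core stood in 2 of the 29 (6.9%), in 20 of 9087 members that were not called (0.22%) and in 0.307% of all 27025 genes of the table. The 2 were Gm13040 and Gm13057, the pair with identical values, so they count as 1 profile. The human core stood in 0 of the 29 and in 0.574% of all genes. Neither core stood in the windows of the 3 lowered genes or of the 4 Zscan4 genes printed above. Multicopy genes share sequence and 31 raised members had no promoter in the table, so these shares describe the matched windows alone.

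The stretches that hold the core are printed for the pair, with the core in capitals, at chr4:143535819-143535887 for Gm13040 and chr4:143551565-143551633 for Gm13057 (GRCm38.p6, both on the plus strand). In each, the core begins 105 bases before the start.
Gm13040: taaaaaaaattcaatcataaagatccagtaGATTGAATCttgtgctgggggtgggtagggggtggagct
Gm13057: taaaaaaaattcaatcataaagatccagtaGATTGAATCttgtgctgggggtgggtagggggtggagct
The 69 bases are the same in both copies, as were the TPM of the pair (33.4 and 46.0 with doxycycline).

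The response was then set beside those of the other lines, all of which carried the transgene and lacked Dux. The responses tested against it, at the same dose label, 1, were those of Suv39h1/2;Setdb1-TKO (OHT in its titles), G9a-KO and G9a;Suv39h1/2-TKO. The transgene reached 42.8 and 46.7 TPM, 55.5 and 58.0 TPM, and 32.6 and 48.4 TPM in them, below the 59.2 and 71.5 TPM of Suv39h1/2-DKO. Doxycycline raised 35 rows (0.253% of those tested), 132 rows (0.955%) and 69 rows (0.499%) in the 3 lines. Of the 60 rows raised in Suv39h1/2-DKO, 34 were also called in Suv39h1/2;Setdb1-TKO (56.7% of the 60 and 97.1% of that line's 35). In G9a-KO 46 were called (76.7% and 34.8%), and in G9a;Suv39h1/2-TKO 41 (68.3% and 59.4%). The control and Setdb1-KO lines were given dose label 0.2 and are listed without a comparison: 25 of the 60 were called in control (26 raised rows in all, 0.188%) and 24 in Setdb1-KO (24 rows, 0.174%). Their median log2 fold changes over the 60 were 1.99 and 1.63. At dose label 1, 39 of the 60 were called in G9a;Setdb1-DKO (105 raised rows, 0.76%) and 32 in G9a;Suv39h1/2;Setdb1-QKO (54 rows, 0.391%), and these responses were not tested against that of Suv39h1/2-DKO.

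No row differed between the response of Suv39h1/2-DKO and that of Suv39h1/2;Setdb1-TKO by limma's test of the difference (0% of rows called, 16 at an unadjusted p below 0.05 with the fold limit). The same count of 0 came with the block, without the 6 libraries and under each other setting run. The median difference over the 60, TKO minus DKO response, was -0.55. The 60 were chosen on the Suv39h1/2-DKO response, a selection that pulls such medians downwards, so they describe the rows and compare no lines. Zscan4f was at 1.15 and 0.817 TPM without and at 236 and 232 TPM with doxycycline in the TKO line, beside 1.89 and 3.06 against 296 and 294 TPM in Suv39h1/2-DKO. Tcstv1 reached 25.3 and 20.5 TPM there, beside 65.5 and 62.2 TPM. Both lines had MERVL-sfGFP at 8.56 to 12.4 TPM without doxycycline, and the 6 other lines had it at 25.5 to 101 TPM.

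Against G9a-KO, 2 rows differed (0.0145% of those tested), BC061212 and its identical copy Gm7978, and 117 did at an unadjusted p. Gm7978 was at 0.0469 and 0.0947 TPM without and at 5.35 and 6.03 TPM with doxycycline in Suv39h1/2-DKO. In G9a-KO it was at 0.975 and 1.19 against 52.6 and 87.1 TPM, a difference of 2.40 in the change of log2(TPM + 1) (SE 0.365, limma adjusted p = 0.0152). Size and sign depend on the scale: the ratio of mean TPM was 80.4 in Suv39h1/2-DKO and 64.4 in G9a-KO, and with a pseudocount of 0.1 the difference was 0.75 (SE 0.611, adjusted p = 0.999). With a pseudocount of 0.1, or without any 1 of the other 7 libraries of these groups, 0 rows were called, while 45 were called without replicate 1 of G9a-KO with doxycycline. Replicate 2 of G9a-KO with doxycycline is 1 of the 6 libraries of high Snhg level, so without the 6 that group rests on 1 library.

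With the block within each line 29 rows differed from G9a-KO (0.21%), 18 of them members, and without the 6 libraries 23 rows did (0.166%), 11 of them members. Obox4 was called in both, with a larger response in G9a-KO (difference 1.57, adjusted p = 0.0157 with the block; with a pseudocount of 0.1 and no block it was positive and not called). It reached 1208 and 1617 TPM with doxycycline in G9a-KO from 18.04 and 19.8 TPM without, beside 48.5 and 67.0 TPM from 1.27 and 1.67 TPM in Suv39h1/2-DKO. Tdpoz3, Zfp352 and A430089I19Rik also had larger responses in G9a-KO in both fits, and their ratios of mean TPM were larger there too. With all libraries and no block they were not called (limma adjusted p = 0.377, 0.637 and 0.304). With a pseudocount of 0.1 and no block their differences were 2.48, 2.04 and 0.99, also not called. Tmem119 had the smaller response there in both (difference -1.51, adjusted p = 0.0252 with the block), at 0.227 and 0.511 against 0.463 and 1.08 TPM in G9a-KO beside 0.761 and 1.16 against 5.70 and 6.56 TPM in Suv39h1/2-DKO. Over the 60 raised members, chosen on the Suv39h1/2-DKO response, the median difference was 0.06 and, without the 6 libraries, -0.36.

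Against G9a;Suv39h1/2-TKO, in which G9a is lost on top of Suv39h1 and Suv39h2, 0 rows differed by limma (0%), and 48 did at an unadjusted p. The block within each line called 4 rows (0.0289%), and the fit without the 6 libraries 22 (0.159%), of which 10 were members. BC061212 and Gm7978 were called in both fits (difference 2.02, adjusted p = 0.0104 with the block), again on the log2(TPM + 1) scale, while the ratio of mean TPM was 42.1 in the TKO line and 80.4 in Suv39h1/2-DKO. Tdpoz1, no member, and Gm5662 were the other block calls, Gm5662 with the smaller log2 response in the TKO line (difference -2.44, limma adjusted p = 0.0254). Gm5662 there was at 60.8 and 34.7 TPM without and at 424 and 335 TPM with doxycycline. Both levels were above those of Suv39h1/2-DKO (0.710 and 0.768 against 60.5 and 93.3 TPM). The median difference over the 60, under the same selection, was -0.65, with 13 positive. Zscan4c, Zscan4d and Zscan4f were called without the 6 libraries with the smaller log2 response in the TKO line (difference -1.87 for Zscan4f, adjusted p = 0.00212). Zscan4f there was at 32.6 and 25.1 TPM without and at 693 and 708 TPM with doxycycline, so both its levels were above those of Suv39h1/2-DKO. With the block, the Zscan4 differences were not called.

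**Figure D5:**
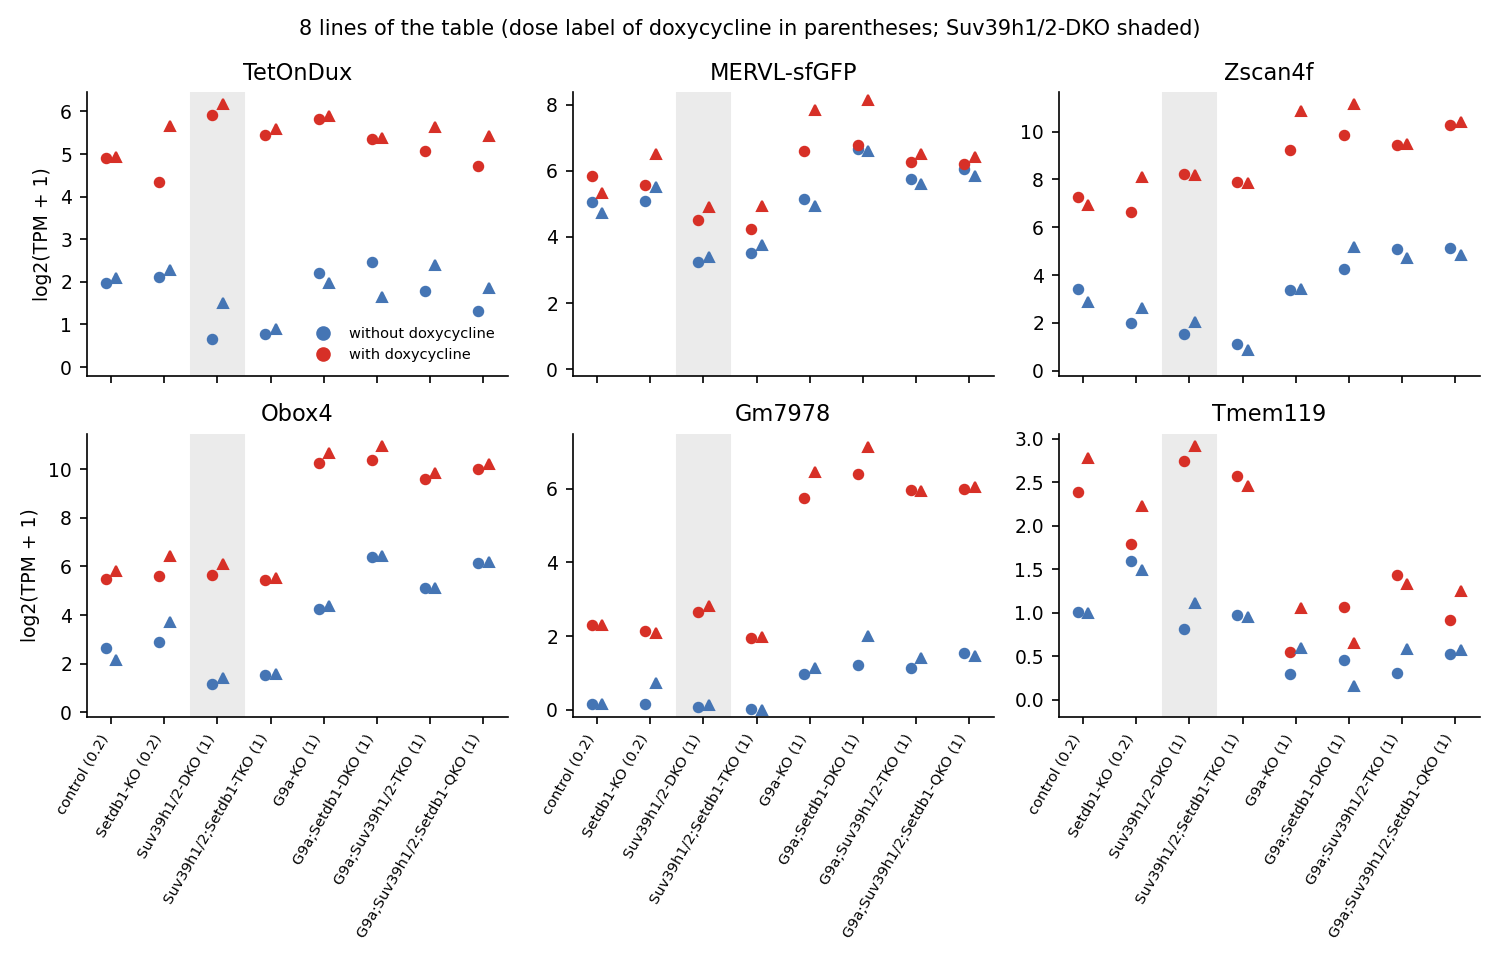
The y axes give log2(TPM + 1) of 6 rows of the table in all 32 libraries, by line on the x axis with the dose label of doxycycline in parentheses, without doxycycline in blue and with it in red, circles for replicate 1 and triangles for replicate 2. In the shaded Suv39h1/2-DKO line TetOnDux reached 59.2 and 71.5 TPM and Obox4 48.5 and 67.0 TPM, while Obox4 reached 1208 and 1617 TPM in G9a-KO.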

How the data were processed

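Poly(A)-selected stranded RNA libraries of the Tet-on-Dux lines (32 libraries, 2 per group) were used. Values were gene TPM deposited by the authors, and the submitters' processing notes name mm10, RSEM 1.3.1, SAMtools 1.9, STAR 2.7.10b and Bowtie2 2.3.4.1, with no order or role. Annotation and treatment of multi-mapping reads were not given in the sources used here. A second deposited table was not used here.

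The 13819 rows with 2 or more of the 32 libraries at 1 TPM or above were fitted as log2(TPM + 1) with limma 3.58.1 (R 4.3.3), with 1 mean per group, a variance trend and 16 residual degrees of freedom. Fold changes on this scale understate the change of low genes. Benjamini-Hochberg adjustment ran over all rows. Differences between lines were differences of differences. Members and gene lists were chosen with earlier results of these data known. Genes were named by the size of called changes, leaving out predicted names and taking at most 3 of a family, by list (up to 5 called and 2 abundant uncalled members), and by TPM with doxycycline. Others were chosen after their values were seen.

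The fit was run on simulated data with independent noise and planted rises only, which cannot test falls or the effect of paired replicates. Positions and promoters came from RefSeq tables (GRCm38.p6). Replicate differences correlated within each line at 0.188 to 0.785, but at -0.679 to 0.785 over all pairs of groups, so a block within each line was added. Alternatives are given in the closing section. Figures used matplotlib 3.10.9 and tables pandas 2.3.3 (Python 3.11.15).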

Additional observations from a re-analysis of the deposited data

Results flagged for a closer look

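The doxycycline response of BC061212 and of Gm7978, which hold the same values in every library, differed between G9a-KO and Suv39h1/2-DKO by 2.40 on the log2(TPM + 1) scale in limma's test of the difference. The rows were raised in both lines (5.05 in G9a-KO and 2.64 in Suv39h1/2-DKO on that scale). From starts of 1.09 and 0.0708 TPM, the ratios of mean TPM were 64.4 and 80.4, in the opposite order, and with a pseudocount of 0.1 the difference was 0.75 and was not called, so size and sign depend on the scale. As copies they count as 1 observation.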

How the results depend on the processing

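For Suv39h1/2-DKO (60 higher, 3 lower), the calls numbered 76 higher and 5 lower with a pseudocount of 0.1, which also raised folds of low genes (Tcstv1 from 5.76 to 7.74), 72 and 2 with median-ratio scaling, 27 higher and 0 lower with the 4 libraries alone (limma, 119 and 11 at an unadjusted p), and 23 lower without a fold limit. They were 100 and 10 with a replicate block within each line, and 102 and 6 without the 6 libraries of high Snhg level, both chosen after seeing the data. A replicate block common to all lines gave 64 and 3. Leaving out single libraries gave 32 to 62 higher and 3 to 5 lower, with 32 without replicate 2 with doxycycline and 5 lower without replicate 2 without it. All 60 kept their sign, which could not change because their libraries did not overlap between the groups. Rows that differed from G9a-KO (2) numbered 0 with a pseudocount of 0.1, 7 with median-ratio scaling, 29 with the block within each line, 23 without the 6 libraries and 0 to 45 without single libraries (45 without replicate 1 of G9a-KO with doxycycline, 0 without each other). Against G9a;Suv39h1/2-TKO (0) they numbered 3 with median-ratio scaling, 2 with the common block, 4 with the block within each line, 22 without the 6 libraries, and 0 to 2 without single libraries (2 without replicate 2 of that line with doxycycline). Against Suv39h1/2;Setdb1-TKO they stayed at 0. The cause of these moves was not tested. Of 72 named genes, 70 kept their status, called or not called, with the block within each line, and MERVL-sfGFP and Otx2 gained a call. Tcstv3 missed the p limit without a filter on low values (adjusted p = 0.0786). Depth is unknown, so precision at low TPM cannot be given.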
